A study of Mus musculus with 2 samples.

Results

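The deep sensory neurons described here were the barcodes in which many transcripts were read and neuronal genes stood out. A barcode was a member when it held at least 20000 UMIs (unique molecular identifiers, each marking 1 captured transcript), when up to 25% of them came from mitochondrial genes, and when *Tubb3*, *Snap25*, *Uchl1*, *Stmn2*, *Prph* and *Nefl* together reached 40 UMIs per 10,000 UMIs of the barcode. No upper limit was set on UMIs. There were 93 members, 50 in replicate 1 and 43 in replicate 2, among 2425 deep barcodes (at least 20000 UMIs and up to 25% mitochondrial UMIs), 19336 barcodes with over 300 detected genes and 3595820 barcodes in all. The members held 5767236 of the 119101743 UMIs of replicate 1 and 5023246 of the 128668771 UMIs of replicate 2.

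The study investigated the role of endothelin signalling in axon regeneration. Droplet sequencing of dissociated ganglia served to examine where endothelins and their receptors are expressed in the dorsal root ganglion (DRG). Both samples belonged to 1 group, naive female C57BL/6 mice of 3 months with no injury, drug or transgene, and lumbar (L4 and L5) ganglia were taken. The ganglia were digested with papain and collagenase, passed through a 70 µm strainer and sorted for live cells, so only cells that withstood these steps were read. The study calls the 2 samples biological replicates, and the number of mice behind each was not given in the sources used here. Comparisons were made between groups of barcodes within these samples, not between conditions.

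The DRG holds the cell bodies of the sensory neurons that carry touch, position, temperature, itch and pain from the body to the spinal cord. Peptidergic nociceptors release calcitonin gene-related peptide (from *Calca*) and substance P (from *Tac1*). Other neurons are told apart by *Mrgprd* (fibres of the outer skin), *Th* (low-threshold C fibres of hairy skin), *Trpm8* (cold) or *Nefh*, *Ntrk2*, *Ntrk3* and *Pvalb* (thick myelinated fibres for touch and muscle stretch), and each cell body is wrapped by satellite glial cells (SGCs).

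The members were far deeper than the other deep barcodes. In replicate 1 a member held 24019 to 237233 UMIs (median 114934) and 9872.5 detected genes at the median. In replicate 2 the range was 22210 to 311121 UMIs (median 124487), with a median of 9946 genes. The 2332 deep barcodes outside the rule had medians of 23961.5 and 23964.5 UMIs and of 5561.5 and 5541 genes. In all, 55 of the 93 members exceeded 100000 UMIs. The mitochondrial share had a median of 5.45% (highest 23.6%) in replicate 1 and of 4.89% (highest 17.7%) in replicate 2. The study removed cells above the median plus 5 median absolute deviations of UMIs, after taking out clusters. Computed over all barcodes with over 300 genes, which is not the same population, that limit was 46499.5 and 50050.2 UMIs. Above it lay 84 of the 93 members (90.3%) and 39 of the 2332 other deep barcodes (1.67%).

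The members were chosen by the UMI count, the mitochondrial share and the 6 genes of the rule, so these values are given as a description with no test. The 6-gene sum had a median of 117 per 10,000 (51.6 to 184) in replicate 1 and 114 per 10,000 (40.5 to 181) in replicate 2, against medians of 0.408 and 0.476 in the other deep barcodes. The lowest members of replicate 1 stood at 51.6, 68.6 and 70.0 per 10,000 and the highest barcodes left out at 31.6, 26.9 and 20.4. In replicate 2 the lowest members stood at 40.5, 43.7 and 49.5 and the highest left out at 31.7, 27.0 and 26.0, so no deep barcode of either sample lay between 31.7 and 40.5. Over the summed members, *Uchl1* (a neuronal ubiquitin hydrolase) reached 30.1 and 29.3 per 10,000 and *Prph* (the intermediate filament peripherin) 24.4 and 23.4. Only 5 further barcodes between 10000 and 20000 UMIs met the remaining criteria, 2 in replicate 1 and 3 in replicate 2.

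**Figure D1:**
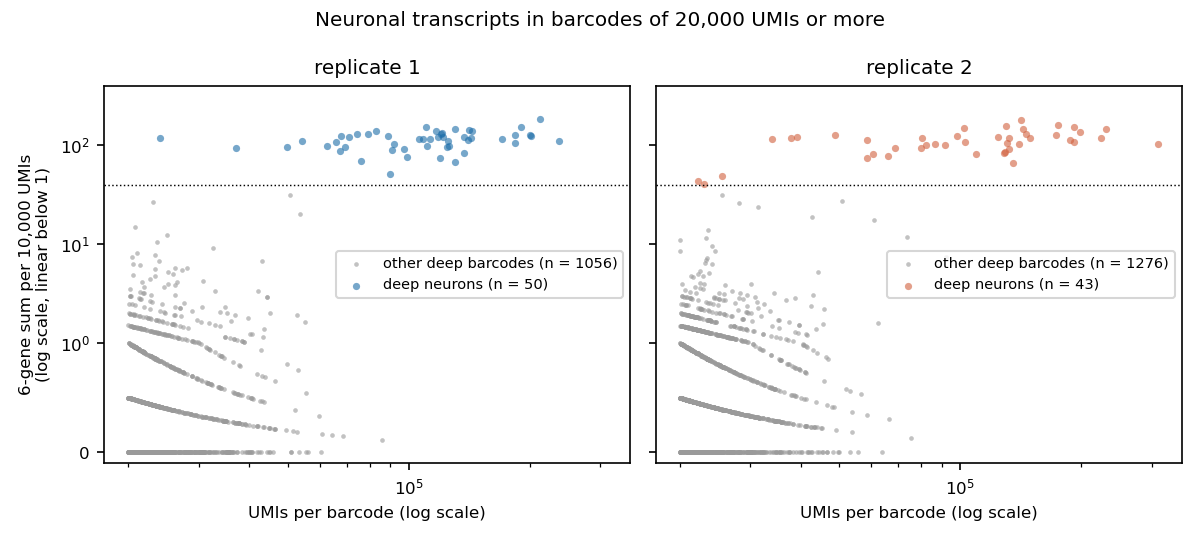
Sum of the 6 rule genes per 10,000 UMIs (vertical, log scale, linear below 1) against UMIs per barcode (horizontal, log scale) for all deep barcodes of replicate 1 (left) and replicate 2 (right). Each point is 1 barcode, the dotted line is the limit of 40, and the 50 and 43 members lie above it in a band apart from the 1056 and 1276 other deep barcodes.

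*Isl1*, a homeobox factor that sensory neurons keep for life, was not part of the rule and gave a check of the label. At least 1 *Isl1* UMI was read in 93 of 93 members, with medians of 19 UMIs in each sample (1 to 56 and 2 to 82). Of the other deep barcodes, 1.61% in replicate 1 and 1.88% in replicate 2 had an *Isl1* UMI. After every barcode was thinned to 20000 UMIs, 50 of 50 members of replicate 1 (95% exact interval 92.9 to 100%) and 41 of 43 of replicate 2 (84.2 to 99.4%) kept one, against 1.33% and 1.57% of the others. These intervals cover counting error only. *Isl1* (ENSMUSG00000042258, mm10 chromosome 13 from 116298281 to 116309689, minus strand) stood at 1.77 and 1.98 per 10,000 in the summed members and 0.0113 and 0.0216 in the other deep barcodes. Empty droplets held *Isl1* at 0.219 and 0.271 per 10,000 and the lowest member at 0.292, so the gene fits the label of neurons for the members as a group and less surely for the lowest of them.

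Some members also carried SGC transcripts, and a few were hard to tell from each other. The 5 SGC markers (*Fabp7*, *Kcnj10*, *Bcan*, *Ptprz1* and *Fbln5*) summed to under 2 per 10,000 in 35 of 50 members of replicate 1 and in 18 of 43 of replicate 2. They reached 25 or more in 3 and 4 members, and the other deep barcodes had medians of 116 and 118. No doublet caller was run, and no member barcode was shared by the libraries. In 7 pairs of members of the same sample gene counts hardly differed beyond the noise of sampling. Their chi-square divided by its degrees of freedom was 1.06 to 1.27, whereas its median was 9.09 over all 4278 pairs and its lowest value 1.92 between the samples. The pairs were not matched for depth, and the lowest pair between the samples had 143740 and 124487 UMIs. A further pair of replicate 1, with 24019 and 37132 UMIs, stood at 1.67. The 7 pairs were made up of 4 members of replicate 2 with 33990 to 48867 UMIs and 2 of replicate 1 with 24019 and 49794 UMIs. Counted once each, they left 89 members. Their barcodes differed at 10 to 15 of 16 bases.

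To see which other genes set the members apart, UMIs were summed over members and over the other deep barcodes of each sample, giving 2 profiles a group, and compared by edgeR's quasi-likelihood test with Benjamini-Hochberg adjustment over all genes. Since membership was decided on the transcripts of the same barcodes, the test describes how far the chosen profiles lie apart. Of 16889 genes tested, 5602 (33.2%) were higher in the members and 6386 (37.8%) lower, and 71.0% were called in either direction, so that a call alone set no gene apart. The median log2 fold change of all genes was -0.14. With members above the median plus 5 median absolute deviations left out, an alternative added after the data were seen, 9 members were left, and 1368 genes were higher and 1917 lower. These were 2 members of replicate 1 and 7 of replicate 2, and 4 of those 7 were the near-identical barcodes. All 9 held *Ntrk2* at 2 or more per 10,000, and none had a UMI of *Scn10a*, *Trpm8*, *Ntrk3* or *Rgs5*. Among the genes named below, those called over all members but not over these 9 included, with their adjusted p by edgeR in parentheses, *Ntrk2* (0.32, its log2 fold change being -0.42), *Piezo2* (0.68), *Syt1* (0.087), *Ednra* (0.058, log2 fold change -2.65), *Edn1* (0.15), *Ece1* (0.065, log2 fold change -1.55), *Atf3* (0.90), *Scn3b* (0.23), *Scn10a* (0.49), *Trpm8* (0.52), *Ntrk3* (0.21), *Kcnip4* (0.98) and *Klf7* (0.94). This list may not be complete, since not every named gene was tested in every setting. *Gm7271*, *Tafa4* and *Cartpt* were tested in 10 of 11 settings.

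Peptide precursors were among the largest differences. *Calca* (chromosome 7 from 114631478 to 114636357, minus strand) stood at 38.9 and 35.1 per 10,000 in the members of replicates 1 and 2 and at 0.103 and 0.102 in the other deep barcodes, a log2 fold change of 8.45 ± 0.11 (SE; adjusted p = 1.1e-05, edgeR). *Tac1* (chromosome 6 from 7554879 to 7565834, plus strand) stood at 28.8 and 26.2 against 0.106 and 0.0948. *Gal*, the precursor of galanin, which modulates pain and is induced by nerve injury, stood at 3.84 and 5.003 against 0.00707 and 0.00945 (log2 fold change 8.99 ± 0.22). In none of these did the groups overlap, which was so for 41.1% of all tested genes on the higher side and 46.3% on the lower. *Gal* was not shared by all members: 27 of 50 and 26 of 43 reached 2 per 10,000. *Adcyap1*, for the peptide PACAP, stood at 5.07 and 4.10 against 0.0223 and 0.0145. Of the 13 peptide genes listed, 10 were tested, 8 were higher, none was lower, and their median log2 fold change was 7.67. The shares over all tested genes were 33.2% higher and 37.8% lower. *Nts* (neurotensin) was counted as higher on replicate 1 alone, at 0.905 per 10,000 against 0.00177, and lay the other way in replicate 2, at 0.00199 against 0.0112. *Npy* (0.0208 and 0 per 10,000 in the members) and *Penk* (0.026 and 0.0677) did not pass the test. *Sst*, *Cck* and *Vip* did not reach 10 counts in 2 profiles and were not tested.

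Several of the genes with the largest fold changes came from a handful of members. *Tafa4*, a secreted protein of low-threshold C fibres (log2 fold change 8.45 ± 0.25), reached 2 per 10,000 in 3 of 50 and 4 of 43 members, and 1 member supplied 34.4% and 44.3% of its UMIs. *Gm7271* (8.84 ± 0.32, or 8.02 in replicate 1 alone and 9.63 in replicate 2 alone) reached that level in 4 members of each sample. *D130079A08Rik* (7.93 ± 0.54) drew 35.5% and 44.2% of its UMIs from 1 member. *Cartpt*, the precursor of the CART peptides, stood at 2.27 per 10,000 in replicate 1 and 0.541 in replicate 2 (7.98 ± 1.08). Others were spread widely. *Nrsn1*, a vesicle membrane protein of neurons, was read in 49 of 50 and 37 of 43 members (8.64 ± 0.32), *Prrxl1*, a homeobox factor of pain circuits, in 49 and 40 (8.37 ± 0.26), and *Fam89a* in 46 and 40 (8.03 ± 0.24). Within replicates 1 and 2 alone, the log2 fold change was 9.46 and 7.96 for *Nrsn1*. It was 8.84 and 8.03 for *Prrxl1*, and 8.61 and 7.58 for *Fam89a*.

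The listed transcription factors of sensory neurons split. Of 11 tested, 8 were higher and 2 lower (median log2 fold change 6.32), against 33.2% and 37.8% of all tested genes. *Pou4f1* and *Isl1*, which act together in sensory neuron identity, rose by 6.93 ± 0.19 and 6.76 ± 0.27 on the log2 scale, and *Tlx3* (6.95 ± 0.14) and *Prdm12* (6.32 ± 0.28), both needed for nociceptors, were higher too. *Runx1*, a factor of unmyelinated fibres, stood at 2.96 and 2.88 per 10,000 against 0.514 and 0.548. *Runx3*, the factor of muscle-stretch neurons, had no UMI in the members of replicate 1, stood at 0.0378 in replicate 2, and did not pass the test (adjusted p = 0.57, edgeR). *Maf* (0.165 and 0.175 against 3.37 and 2.84) and *Etv1* (0.600 and 0.565 against 0.837 and 0.841) were lower in the members.

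Ion channels of excitability were higher almost throughout. All 9 listed sodium channel subunits and all 9 calcium channel subunits were higher (median log2 fold changes 4.74 and 3.47), as were 12 of 15 potassium channel genes (median 4.68). Among all tested genes the higher share was 33.2%. *Scn9a*, the channel Nav1.7 that sets the threshold of nociceptors, stood at 5.44 and 5.15 per 10,000 against 0.0432 and 0.0818 (6.35 ± 0.33, adjusted p = 6.4e-05, edgeR). *Scn10a* (Nav1.8) stood at 2.22 and 2.42 against 0.0453 and 0.121, and *Scn11a* (Nav1.9) at 1.92 and 2.11 against 0.0117 and 0.0458. The smallest sodium channel difference was *Scn3b*, a regulatory subunit, at 0.609 and 0.705 against 0.480 and 0.494, which was not called with barcodes thinned to 20000 UMIs (adjusted p = 0.078, edgeR) or with no filter (0.074). *Kcnb2*, a delayed rectifier, stood at 14.9 and 13.6 against 0.242 and 0.384, and *Cacna2d1*, the calcium channel subunit that gabapentin binds, at 11.4 and 10.5 against 0.443 and 0.487. *Kcna1*, a channel of myelinated axons, was the exception, at 0.0884 and 0.285 against 1.36 and 1.19 (-2.85 ± 0.46). *Kcna2* (0.837 and 0.848 against 0.811 and 0.730) and *Kcnq3* (0.0156 and 0.358 against 0.00318 and 0.0230) did not pass the test. *Kcna2* was lower in the 9 members under the upper UMI limit (-1.98, adjusted p = 0.010, edgeR), and *Kcnq3* passed with the replicate number as a block (adjusted p = 8.0e-04, edgeR), with no filter (0.019), with thinned barcodes (0.016) and by DESeq2 (0.016).

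Channels that turn heat, cold, touch or acid into current followed the same direction in 11 of 12 cases (median log2 fold change 4.42). Among all tested genes 33.2% were higher. *Trpv1*, the heat and capsaicin receptor, stood at 3.63 and 3.44 per 10,000 against 0.0272 and 0.0904. *Trpm8*, the cold receptor, stood at 0.969 and 0.848 against 0.0265 and 0.0691. *Asic2*, an acid-sensing channel, stood at 7.54 and 11.3 against 0.0584 and 0.153, and *Piezo2*, the main touch channel, at 2.94 and 3.85 against 0.664 and 0.746. The exception was *Trpm3*, a heat-activated channel, at 4.76 and 4.43 against 7.33 and 7.22 (-0.71 ± 0.07, adjusted p = 5.8e-04, edgeR).

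Receptors for trophic factors moved in both directions. *Gfra3*, the co-receptor for artemin, stood at 2.60 and 2.37 per 10,000 against 0.0173 and 0.0151. *Ntrk2*, the receptor for brain-derived neurotrophic factor, was lower in the members, at 0.950 and 1.97 against 5.19 and 5.40 (-1.91 ± 0.33, adjusted p = 0.0043, edgeR). *Ntrk3*, the neurotrophin-3 receptor, was higher (1.25 and 1.61 against 0.123 and 0.208). *Gfra1* stood at 0.106 and 0.366 against 0.504 and 0.575 and did not pass the test (adjusted p = 0.064, edgeR), though it was lower with the replicate block (0.019), with no filter (0.012), with thinned barcodes (0.0099), with members of a 6-gene sum of 80 or more (4.3e-05) and in the 9 members under the upper UMI limit (0.016). Over the list, 6 of 8 tested genes were higher and 1 lower, with a median log2 fold change of 3.68. The shares of all tested genes were 33.2% and 37.8%. Of 8 tested itch and pain receptor genes, 6 were higher and none lower (median 2.93), or 5 with the replicate block, which lost the serotonin receptor gene *Htr1f* (adjusted p = 0.0498 without it and 0.070 with it, edgeR). *Htr1f* stood at 0.912 against 0.0541 in replicate 1 and the other way, at 0.0458 against 0.0547, in replicate 2. Among them were *Oprm1*, the mu opioid receptor, at 2.91 and 2.44 against 0.0488 and 0.0340, and *F2rl2* at 0.605 and 0.424 against 0.00672 and 0.00680.

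Genes of transmitter release and of the axonal skeleton were higher with a single exception in the second group. All 16 tested release genes were higher (median log2 fold change 4.59), against 33.2% of all tested genes. *Slc17a6*, the vesicular glutamate transporter of sensory neurons, stood at 2.90 and 2.85 per 10,000 against 0.0241 and 0.0328. *Syt1*, the calcium sensor of fast release, stood at 8.07 and 6.55 against 0.0814 and 0.214. Of 10 cytoskeleton genes, 9 were higher (median 5.94), for example *Nefm*, the medium neurofilament, at 4.51 and 4.46 against 0.0446 and 0.0620. *Map2*, a dendritic microtubule protein, stood at 1.05 and 1.27 against 1.36 and 1.20 and did not pass the test, but was lower with no filter (adjusted p = 0.026, edgeR).

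Genes of axon regrowth moved in both directions. *Gap43*, a growth cone protein, stood at 5.39 and 5.12 per 10,000 against 0.0633 and 0.0709 (6.24 ± 0.10), and *Sox11*, a factor that promotes regrowth, at 0.473 and 0.474 against 0.0156 and 0.0130 (5.01 ± 0.12). *Atf3*, the classic marker of an injured neuron, was lower in the members, at 1.08 and 0.677 against 1.53 and 1.64 (-0.89 ± 0.23, adjusted p = 0.019, edgeR), and was not called with barcodes thinned to 20000 UMIs (adjusted p = 0.13). *Klf6* was lower (-0.43 ± 0.08) and *Klf7* higher (1.16 ± 0.07). Over the list 6 of 8 tested genes were higher and 2 lower, with a median log2 fold change of 0.88. The shares of all tested genes were 33.2% and 37.8%.

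The listed genes that dissociation is known to induce were all 9 lower in the members (median log2 fold change -2.23). Among all tested genes 37.8% were lower. *Fos* stood at 1.97 and 1.56 per 10,000 against 15.1 and 16.5, *Egr1* at 0.277 and 0.324 against 4.15 and 4.34, and *Jun* at 3.88 and 3.21 against 11.6 and 12.5. The heat shock gene *Hspa1a* stood at 1.42 and 1.20 against 4.07 and 5.50. In each of these the 2 member profiles lay below both others, as they did for 46.3% of all tested genes.

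Of the endothelin system, 1 of 6 tested genes was higher in the members and 5 were lower (median log2 fold change -3.19). The shares of all tested genes were 33.2% and 37.8%. *Ece2*, an endothelin-converting enzyme, stood at 0.562 and 0.589 per 10,000 against 0.0141 and 0.0180 (5.10 ± 0.13, adjusted p = 1.4e-05, edgeR). The related enzyme *Ece1* showed the opposite, at 0.267 and 0.311 against 1.20 and 1.20. The receptor gene *Ednrb* stood at 0.336 and 0.442 against 7.92 and 7.94, and the SGC marker sum beside it at 5.45 and 8.64 against 107 and 112. The receptor gene *Ednra* stood at 0.0451 and 0.0259 against 0.177 and 0.177. *Edn1*, for the ligand endothelin 1, had no UMI in the members of either sample, which put it at least 34.0-fold lower than in the other deep barcodes when 3 UMIs over the group were taken as the limit (15.3-fold in replicate 1 alone and 17.96-fold in replicate 2 alone). The part of SGC transcripts in the *Ednrb* values of the members was not tested.

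The listed markers of other cell types were mostly lower, as were the 5 genes with the largest decrease among those at 1 per 10,000 or more. *Adgrl4* had 0 and 0.00199 per 10,000 in the members against 1.32 and 1.55, *Emcn* 0.0052 and 0 against 1.25 and 1.18, and *Cyyr1* 0 and 0.00796 against 1.26 and 1.29. *Flt1*, a receptor for vascular endothelial growth factor, stood at 0.0104 and 0.00995 against 3.02 and 3.20, and *Cldn5*, a tight junction protein, at 0.0052 and 0.00995 against 1.93 and 2.04. The 4 endothelial markers summed to 0.0607 and 0.0358 in the members against 6.83 and 7.16, the 3 macrophage markers to 0.0555 and 0.0577 against 1.04 and 0.862, and the 3 leukocyte markers to 0.0624 and 0.0956 against 4.98 and 7.30. The 6 Schwann cell markers summed to 4.90 and 5.40 against 23.998 and 21.9, but 3.55 and 3.56 of that was *Scn7a*, a sodium channel that was itself higher in the members (4.12 ± 0.34). Of the fibroblast sum of 3.47 and 6.87 (8.42 and 14.04 in the others), 3.41 and 6.80 came from *Dcn*, the proteoglycan decorin. *Dcn* did not pass the test (-0.76 ± 0.39, adjusted p = 0.13, edgeR) and was lower with the replicate block (adjusted p = 7.3e-04) and with no filter (0.032). Of the mural cell sum of 0.640 and 1.66, 0.602 and 1.61 came from *Rgs5*, at 0.814 and 0.537 in the others and not past the test.

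**Figure D2:**
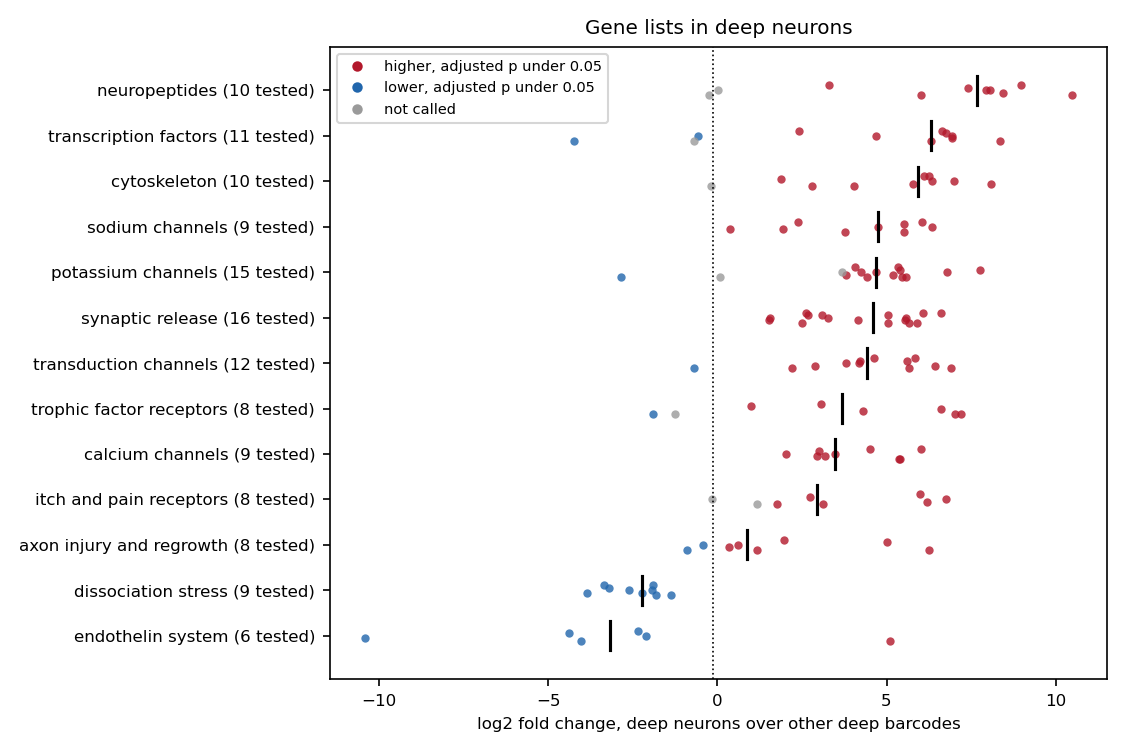
Log2 fold change of the members over the other deep barcodes (horizontal) for each tested gene of the 13 lists (rows). Each point is 1 gene, red where higher and blue where lower at an adjusted p under 0.05, black bars are list medians, and the dotted line is the median of all genes (-0.14). Peptides have the highest median (7.67), and stress and endothelin genes lie mostly left of the line.

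Inside the members, 9 genes (*Calca*, *Tac1*, *Trpv1*, *Mrgprd*, *Th*, *Nefh*, *Ntrk2*, *Ntrk3* and *Pvalb*) were used to sort classes without clustering, so their values by class are a description with no test. A gene was taken as on at 2 or more UMIs per 10,000 and at 5 or more times its share in the empty droplets of the sample, which hold free RNA. Because *Calca* reached 3.27 and 5.25 per 10,000 in empty droplets, it counted as on only from 16.4 and 26.2. *Ntrk2*, at 3.73 and 3.83 in empty droplets, would have needed 18.6 and 19.2 and was on in no member. In both samples the largest classes were *Calca* without *Nefh*, with 16 and 19 members, and none of the classes, with 23 and 18. With near-identical barcodes counted once, the first had 16 and 16 members and the second 22 and 18. *Nefh* without *Calca* had 7 and 1 members, where *Nefh* was on from 2 per 10,000 in replicate 1 but only from 5.87 in replicate 2, so that these numbers cannot be compared. In this class 4 members held *Calca* at 2 or more per 10,000 (highest 7.49 and 3.66), below its limit for on. The *Th* class had 3 and 3 members, *Calca* with *Nefh* 1 and 0, *Pvalb* 0 and 1 and *Mrgprd* 0 and 1. With no condition on empty droplets, the *Calca* class had 24 and 27 members and 15 and 8 were in none.

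At 2 per 10,000 alone, *Tac1* was the gene most members carried, 47 of 50 and 37 of 43. *Calca* reached that level in 28 and 29 members, *Trpv1* in 29 and 27, *Ntrk3* in 16 and 13 and *Ntrk2* in 8 and 17. *Nefh* did so in 8 and 4, *Th* in 3 and 4, *Mrgprd* in 0 and 1 and *Pvalb* in 0 and 1. Of the 57 *Calca* members 54 also had *Tac1*, and 41 had *Trpv1*. For *Calca* and *Tac1* that level lies below their share in empty droplets (2.85 and 2.36 per 10,000 for *Tac1*). By the stricter rule *Calca* was on in 36 of the 93 members, *Tac1* in 62 and *Trpv1* in 56. At 2 per 10,000, *Tac1* was also found in most members marked by other genes, such as all 12 with *Trpm8*. The stricter limit for *Tac1* was 14.2 and 11.8 per 10,000, and the highest value in the *Th* class was 4.90.

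In the *Calca* class the level of *Calca* ran from 22.1 to 182 per 10,000 in replicate 1 (median 94.2) and from 28.8 to 243 in replicate 2 (median 59.7). Its *Tac1* medians were 43.0 and 45.3 and its *Trpv1* medians 2.68 and 3.38. In the members of none of the classes *Calca* had medians of 0.742 and 2.56 (highest 12.6 and 18.2), *Tac1* of 27.7 and 18.3 and *Trpv1* of 4.12 and 4.12. Of the 41 members without a class, 37 had *Tac1* at 2 or more per 10,000. That they lay below the *Calca* limit was fixed by the class rule. Members without a class were also shallower, with medians of 89849 and 81225 UMIs against 120500 and 130416 in the *Calca* class.

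**Figure D3:**
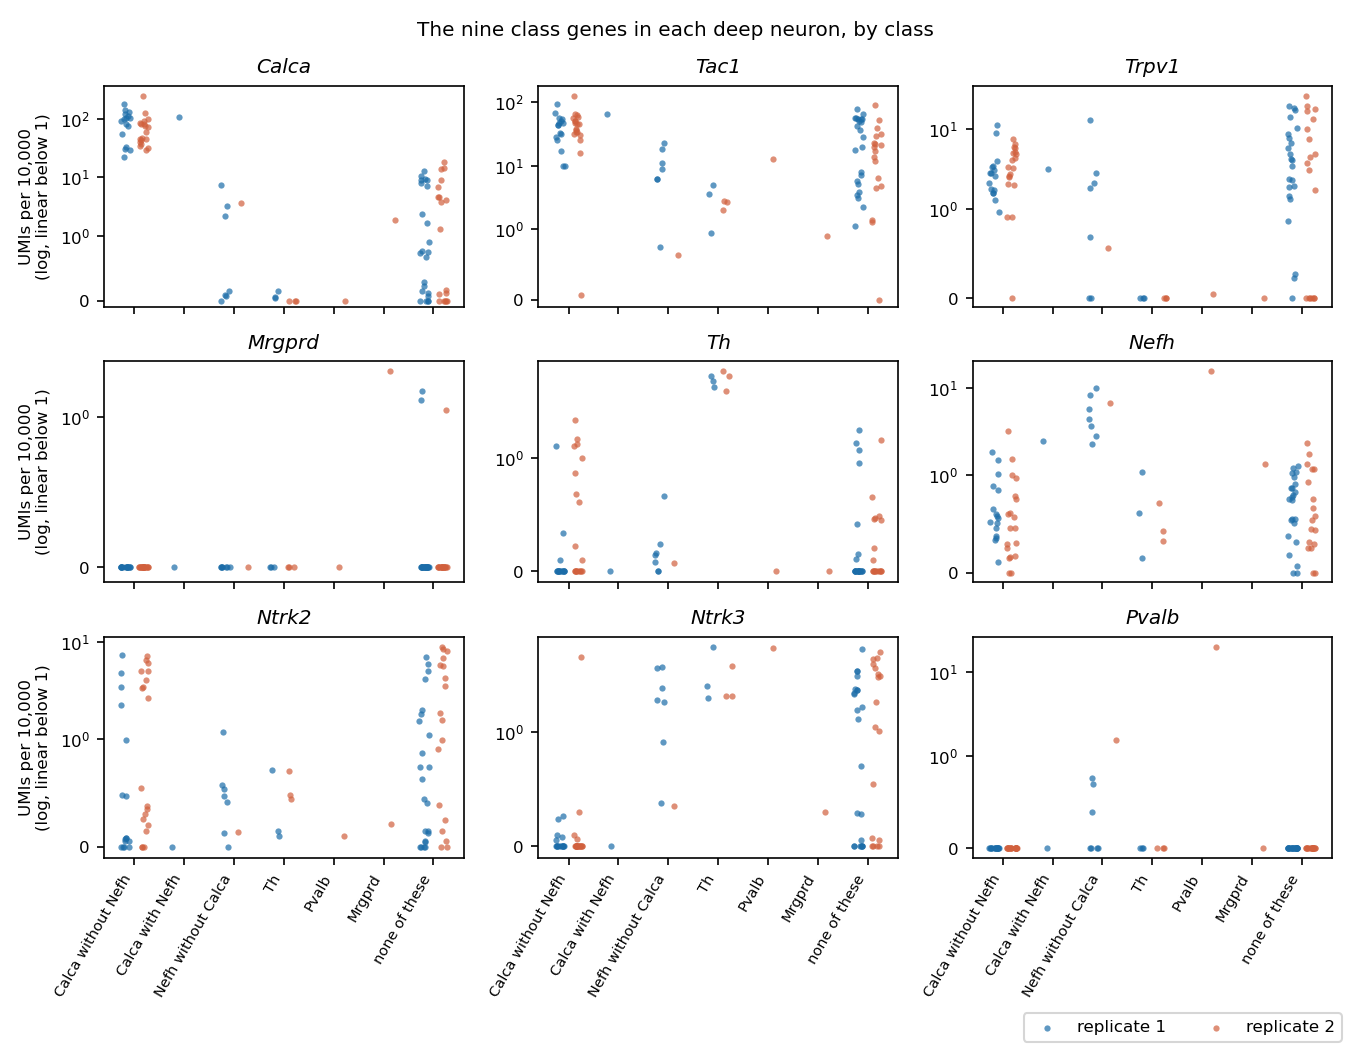
UMIs per 10,000 (vertical, log scale, linear below 1) of the 9 class genes in each member, by class (horizontal). Each point is 1 member, blue for replicate 1 and orange for replicate 2. *Calca* spans 22.1 to 243 in its class, *Th* is at 4.60 to 7.15 in 6 members, and *Mrgprd* and *Pvalb* mark 1 member each.

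The 6 *Th* members were alike across samples. Their *Th* lay at 4.60 to 7.15 per 10,000 and their *Calca* at no more than 0.153, and *Trpv1* and *Trpm8* had no UMI in any of them. *Tafa4* lay at 5.50 to 14.6, *P2ry1*, a receptor for ADP, at 3.39 to 5.66 and *Gfra2*, the neurturin co-receptor, at 3.20 to 7.58, which are 3 of the markers listed for this kind of neuron. They also carried *Piezo2* at 13.2 to 29.8, *Kcnip4*, a subunit of A-type potassium channels, at 25.6 to 64.0, *Ntrk3* at 2.18 to 6.81 and *Rgs5* at 2.28 to 10.3. They were deep, with 130671 to 311121 UMIs, and 5 of the 6 had an SGC marker sum under 2.

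Rarer kinds rested on 1 or 2 members, and are given as values only. The *Pvalb* member of replicate 2 (199032 UMIs) had *Pvalb* at 19.9, *Nefh* at 15.4, *Ntrk3* at 6.68 and *Tac1* at 12.7 per 10,000, with no *Calca* UMI. The *Mrgprd* member of replicate 2 (230580 UMIs) had *Mrgprd* at 2.17, *Lpar3* (a lysophosphatidic acid receptor) at 4.34 and *Scn11a* at 10.1. In 3 further members *Mrgprd* lay between 1 and 2, at 1.34 and 1.56 in replicate 1 and 1.12 in replicate 2. The itch peptides *Sst*, *Nppb* and *Nts* were highest in 2 members of replicate 1 (137051 and 183653 UMIs), with *Sst* at 5.25 and 27.1, *Nppb* at 10.9 and 10.0 and *Nts* at 11.0 and 19.8. The same members held *Il31ra*, part of the receptor for the itch cytokine interleukin 31, at 7.005 and 13.2, and the serotonin receptor *Htr1f* at 13.6 and 13.6. In replicate 2 no member reached 2 per 10,000 of *Sst* or *Nts*, 1 reached it for *Nppb* (2.31) and a different one for *Il31ra* (4.06). At least 1 *Nppb* UMI was read in 12 of the 93 members.

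*Ntrk2* and *Ntrk3*, the receptors for different neurotrophins, did not occur together at 2 per 10,000. *Ntrk2* (chromosome 13 from 58806569 to 59133970, plus strand) reached that level in 25 members and *Ntrk3* (chromosome 7 from 78175959 to 78738012, minus strand) in 29, and 0 members had both, the nearest holding *Ntrk3* at 1.96. Of the 25 *Ntrk2* members, 24 had *Calca*, 24 *Tac1*, 24 *Trpv1*, 23 *Gal*, 23 *Gfra3*, 0 *Nefh* and 0 *Trpm8* at that level. Their medians were 22.1 per 10,000 for *Calca*, 25.2 for *Tac1*, 5.87 for *Trpv1* and 9.09 for *Gal*. Among all 93 members, 57 had *Calca*, 84 *Tac1*, 56 *Trpv1* and 12 *Nefh*. The *Ntrk2* level of 2 per 10,000 lies below that of empty droplets, and the sets were looked at after their values were seen, so these counts are a description. Of the 29 *Ntrk3* members, 24 had *Tac1*, 12 *Trpv1*, 9 *Trpm8* and 5 *Calca*.

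*Dcn* was high mostly in the same members as *Ntrk2*. It reached 2 per 10,000 in 24 of the 25 *Ntrk2* members, with a median of 22.5 and a highest value of 51.6, and in 3 of the other 68, whose median was 0.125. The fibroblast genes *Lum* and *Col1a1* had 14 and 2 UMIs in all over those 25 members. *Scn10a* had a median of 0 and *Kcnip4* did not exceed 1.96 in them, against medians of 1.63 and 3.04 in the other 68. This set was looked at after its values were seen. SGC transcripts were under 2 per 10,000 in 10 of the 25 and at 25 or more in 4, and the member with neither *Calca*, *Tac1* nor *Trpv1* was 1 of these 4, with an SGC marker sum of 146. Empty droplets held *Dcn* at 13.1 and 14.5 per 10,000 and *Ntrk2* at 3.73 and 3.83, and the part of free RNA in these values was not tested. Every near-identical barcode fell in this set, which held 21 members when these were counted once. It also held all members under 54171 UMIs.

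**Figure D4:**
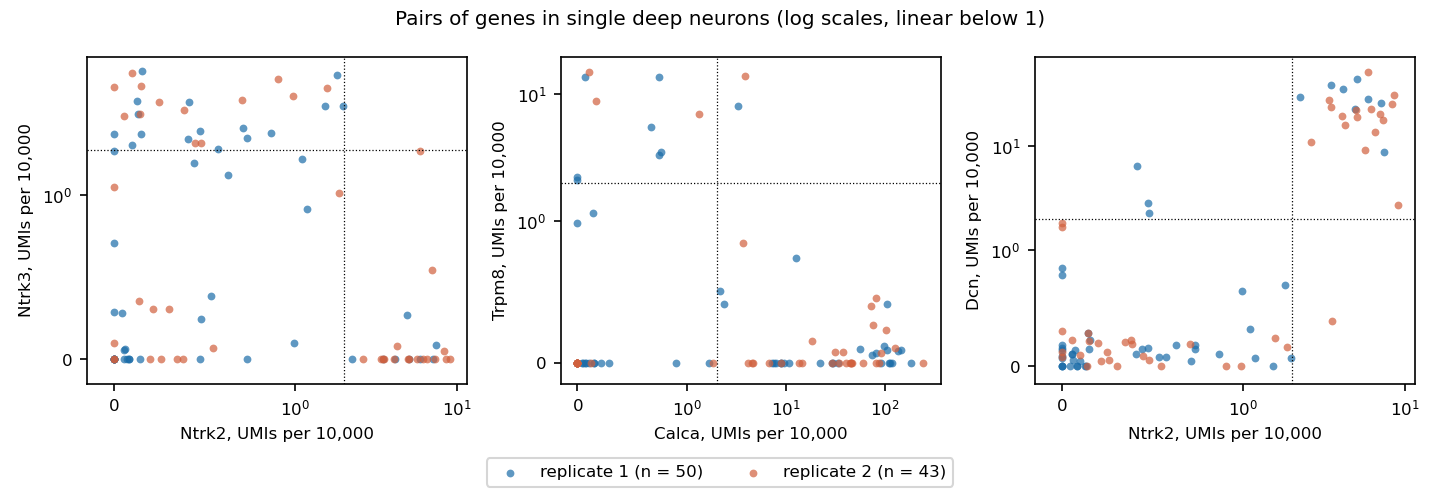
Levels of *Ntrk3* against *Ntrk2* (left), *Trpm8* against *Calca* (middle) and *Dcn* against *Ntrk2* (right) in each member, in UMIs per 10,000 on log scales (linear below 1). Points are members of replicate 1 (blue, 50) and replicate 2 (orange, 43), dotted lines mark 2 per 10,000, and no point lies above both lines on the left while 24 do on the right.

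*Trpm8* (chromosome 1 from 88277661 to 88389293, plus strand) marked a further set, also chosen after its values were seen. It reached 2 per 10,000 in 8 and 4 members, at 2.12 to 15.0. All 12 also had *Tac1* (8.97 to 90.7), the transcription factor *Foxp2* (2.88 to 10.5) and the cadherin *Cdh8* (2.38 to 7.57) at that level, and 10 had *Gal*. These genes were not particular to the set. Over all 93 members, 84 had *Tac1*, 24 *Foxp2*, 22 *Cdh8* and 53 *Gal* at that level. Only 2 of the 12 had *Calca* and 2 *Trpv1*, and *Scn10a* (highest 0.0820), *Scn11a* (highest 0.303) and *Piezo2* (highest 0.170) were near 0 in all 12. The *Nefh* without *Calca* class of replicate 1 also had little *Scn10a* (highest 0.131) and no *Piezo2* UMI. By the class rule 9 of the 12 fell in none of the classes, 3 in *Nefh* without *Calca* and 0 in the *Calca* class. *Penk*, listed beside these markers, was at 0.026 and 0.0677 per 10,000 in the summed members.

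The *Calca* class and the members with none of the classes were the only groups with at least 5 members in each sample, and their summed profiles were compared in the same way. The classes were cut on *Calca* and *Nefh* in the same cells, so again the test describes chosen profiles. Of 11437 genes tested, 204 (1.78%) were higher in the *Calca* class and 248 (2.17%) lower, 3.95% in either direction, with a median log2 fold change of -0.00464 over all genes. With the replicate number as a block, which the shared libraries give, 108 were higher and 159 lower. With no condition on empty droplets, 10 of the genes named here were no longer called, *Trpm8* (-2.29, adjusted p = 0.18, edgeR), *Kcnip4*, *Lpar3*, *Prkcq*, *Oprm1*, *Calcb*, *Scn1a*, *Gm765*, *Gm7271* and *8430422H06Rik*.

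*Pou4f3*, a POU-domain transcription factor, showed the largest difference among genes at 0.5 or more per 10,000 that were higher in the *Calca* class, at 0.872 and 0.440 per 10,000 against 0.00469 and 0 (log2 fold change 7.62 ± 0.75, adjusted p = 0.0065, edgeR). It was read in 13 of 16 and 8 of 19 *Calca* members, and in 1 of 23 and 0 of 18 others. *L3mbtl4* stood at 0.694 and 0.640 against 0.00938 and 0.00636. *Sstr2*, a somatostatin receptor, stood at 0.994 and 0.774 against 0.00469 and 0.0318. *Kcnt2*, a sodium-activated potassium channel, stood at 1.17 and 0.927 against 0.0375 and 0.00636, and *Gpr149*, an orphan receptor, at 1.13 and 1.51 against 0.0845 and 0.121 (3.70 ± 0.25). For all 5 both *Calca* profiles lay above both others, as they did for 2856 of the 11437 tested genes, and for 2773 (24.2%) they lay below. *Pou4f3* had 1 UMI in all in the members of no class, so its fitted fold change is no bound. Within 1 library the log2 fold change of *Sstr2* was 7.098 in replicate 1 and 4.52 in replicate 2, and that of *Kcnt2* 4.85 and 6.73.

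Of the listed genes, few in each group differed, where 1.78% of all tested genes were higher and 2.17% lower. *Ngfr*, the low-affinity neurotrophin receptor, stood at 1.37 and 1.28 per 10,000 against 0.108 and 0.261 (2.90 ± 0.33, adjusted p = 0.0088, edgeR). It was not called with genes on from 1 per 10,000 (adjusted p = 0.067, edgeR, log2 fold change 2.76) or from 5 (0.067, log2 fold change 2.47). Nor was it called at 10 times the empty droplets (0.054, log2 fold change 1.31). Of 6 tested trophic receptors 2 were higher and 1 lower, and the lower one was *Gfra2*, at 0.0328 and 0.0602 against 0.802 and 0.649 (-3.95 ± 0.31). *Gap43* stood at 8.69 and 8.37 against 4.40 and 4.65 (0.91 ± 0.14) and *Klf6* at 2.37 and 2.28 against 0.807 and 0.986, 2 of 8 genes of injury and regrowth, of which none was lower. Among the peptides *Adcyap1* stood at 10.2 and 7.57 against 2.31 and 2.53 (1.87 ± 0.19) and *Calcb* at 3.35 and 2.39 against 1.14 and 1.40, and *Calcb* was not called with the replicate block (adjusted p = 0.08, edgeR), without members of high SGC marker sum (0.055) or with genes on from 5 per 10,000 (0.33). *Oprm1*, at 4.16 and 3.91 against 2.38 and 2.36, passed at an adjusted p of 0.037 (edgeR) and not with the block (0.054), without members of high SGC marker sum (0.052) or with genes on from 1 per 10,000 (0.12). *Asic3*, an acid-sensing channel, stood at 0.127 and 0.361 against no UMI in either profile, at least 30.2-fold higher by the limit of 3 UMIs over the group (8.996-fold in replicate 1 alone and 18.9-fold in replicate 2 alone), and was not called with genes on from 1 (adjusted p = 0.067, edgeR) or 5 per 10,000 (0.08). *Kcnip4* stood at 3.99 and 5.36 against 2.11 and 2.41 (1.05 ± 0.18), was not called with genes on from 1 per 10,000 (adjusted p = 0.19, edgeR) or at 10 times the empty droplets (0.45), and turned in direction with genes on from 5 (-0.40).

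The lower side held the 3 tested genes listed as markers of *Trpm8* neurons. Not all of their carriers had *Trpm8*. Among members with none of the classes, 16 held *Foxp2* at 2 or more per 10,000, 14 *Cdh8* and 9 *Trpm8*. *Trpm8* stood at 0.0610 and 0.107 per 10,000 in the *Calca* class against 1.03 and 2.49 (-4.36 ± 0.49), *Foxp2* at 0.127 and 0.0834 against 1.5 and 1.40 (-3.78 ± 0.23) and *Cdh8* at 0.192 and 0.125 against 1.67 and 1.47 (-3.31 ± 0.24). All 3 tested markers of that list were lower, against 2.17% of all tested genes. *Lpar3* (0.0234 and 0.0139 against 0.357 and 0.210, not called with genes on from 1 per 10,000) and *Prkcq*, a protein kinase C (0.00469 and 0.00927 against 0.291 and 0.204), were 2 of the 6 tested markers of *Mrgprd* neurons and were lower too. *Scn1a*, the channel Nav1.1, stood at 0.0469 and 0.102 against 0.333 and 0.573, and *Syt1* at 3.69 and 3.71 against 6.67 and 6.39 (-0.82 ± 0.14). Of the 9 stress genes, 9 transcription factors, 3 endothelin genes and 5 SGC markers tested, none passed the test in either direction.

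At 0.5 or more per 10,000, the 5 lowest by fold change were carried by few members. *Calb1*, the calcium-binding protein calbindin, stood at 0 and 0.00463 per 10,000 against 1.82 and 2.00 (-9.34 ± 0.38, adjusted p = 0.0011, edgeR), and 1 member supplied 50.3% and 61.3% of its UMIs in the members of no class. *Kcnd2*, an A-type potassium channel, stood at 0 and 0.00463 against 0.563 and 0.961, and *Gm765* at 0.00938 and 0 against 0.845 and 0.515. *8430422H06Rik* stood at 0 and 0.00927 against 0.450 and 0.808. *Gm7271* stood at 0.0141 and 0 against 0.704 and 1.35, with 92.0% and 100% of its UMIs from 1 member, was not called with genes on from 1 per 10,000 (adjusted p = 0.16, edgeR), and was carried by all 6 *Th* members, at 7.36 to 11.5 per 10,000.

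**Figure D5:**
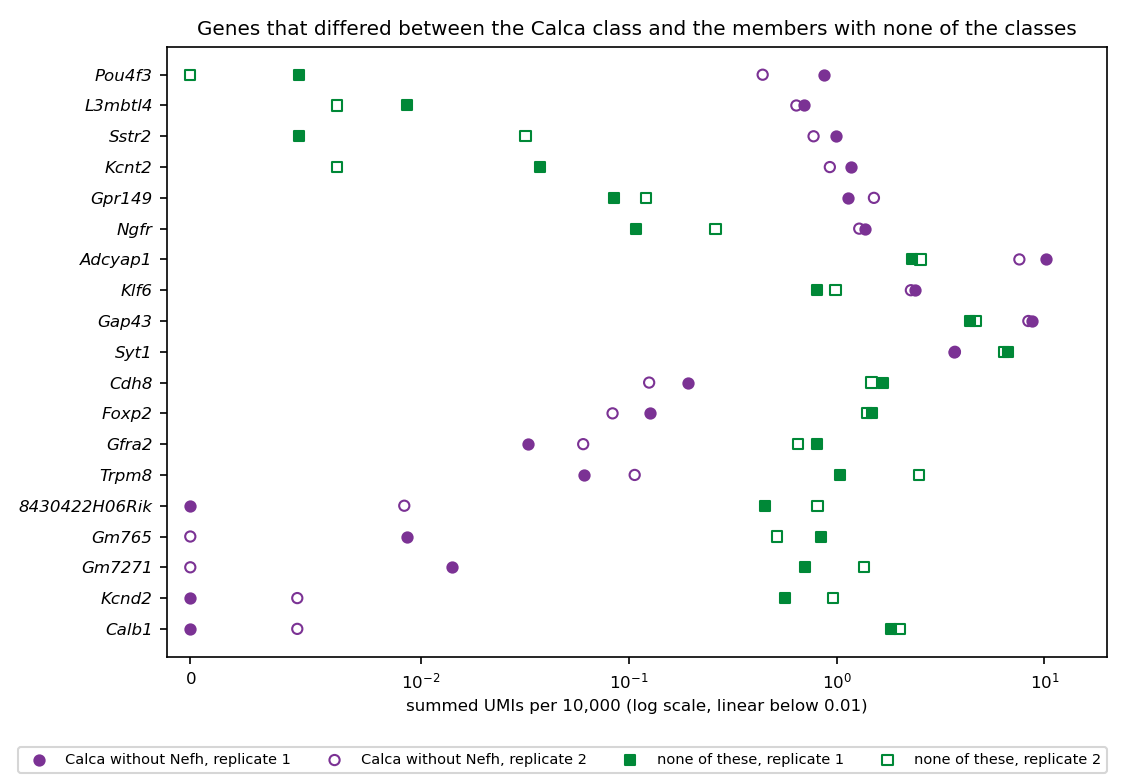
Summed level per 10,000 UMIs (horizontal, log scale, linear below 0.01) of the named genes and of further listed genes (rows) in the *Calca* class (purple circles, 16 and 19 members) and in the members with none of the classes (green squares, 23 and 18). Filled symbols are replicate 1 and open symbols replicate 2, rows are ordered by log2 fold change, and in each row the 2 circles lie on the same side of both squares.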

How the data were processed

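Per the file headers and the methods of the study, the deposited values were raw UMI counts per gene and barcode, made by the authors with Cell Ranger 7.1.0 on mm10 from 3′ libraries, with every barcode kept and the 2 samples not pooled. Gene symbols were those of the 32285 identifiers in the deposited files, and coordinates came from GENCODE M21 (mm10). A level is UMIs per 10,000 UMIs of a barcode or profile. Counts were summed per sample and group and fitted with edgeR 4.0.16 in R 4.3.3 (TMM, at least 10 counts in 2 profiles, Benjamini-Hochberg adjusted p under 0.05). Empty droplets were the barcodes ranked 45000 to 90000 by UMIs. Members, gene lists and class rules were chosen with earlier results of these data known. Named genes were the 10 higher and 5 lower with the largest fold change at 1 per 10,000 or more, the 5 per class at 0.5 or more, and listed genes. Other genes were named after their values were seen. Same-numbered profiles came from 1 library, which pairs them. The correlation of their deviations was 0.0548 for neurons against other deep barcodes and -0.00203 for the classes. On simulated counts, the first comparison recovered 66% of 2-fold and 100% of 4-fold changes among 16434 genes and the class comparison 57% and 99% among 11217. Only 200 genes were changed in each, drawn from those with higher expected counts, and every gene had the same fixed spread. These shares therefore need not hold for the real counts. Further settings, DESeq2 1.42.0 included, are given in the closing section. No doublets were removed. Results for some genes are not reported here.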

Additional observations from a re-analysis of the deposited data

How the results depend on the processing

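Between 82 and 100 barcodes were members under other limits on UMIs, mitochondrial share, the 6-gene sum, SGC markers and near-identical barcodes. The upper UMI cutoff, chosen after seeing the data, left 9 members, and then 1368 genes were higher and 1917 lower. Of these members 2 were of replicate 1 and 7 of replicate 2, and 4 of the 7 were near-identical barcodes. Every other setting gave 3810 to 5668 higher and 4797 to 6980 lower genes, the replicate block 5310 and 5800. In the 9 members left, fitted log2 fold changes turned for *Scn10a* (-10.03), *Kcnip4* (-0.11), *Kcna2* (-1.98), *Trpm8* (-9.24), *Ntrk3* (-11.02), *Klf7* (-0.030), *Dcn* (1.08) and *Rgs5* (-13.04). Among these, *Scn10a*, *Trpm8*, *Ntrk3* and *Rgs5* had no UMI in the 9 members. *Npy*, not called in any setting, turned with DESeq2 (-0.012), no filter (-0.12), the replicate block (-0.053), thinning (-0.015) and the upper cutoff (-7.04). *Kcna2* also turned with no filter and with thinning (-0.057 each). Between classes, the count of higher genes was 485 with no filter, 108 with the replicate block, 128 with barcodes thinned to 20000 UMIs, 114 with genes on from 1 per 10,000 and 484 at 10 times the empty droplets. The count of lower genes was 596 with no filter, 159 with the block, 143 with genes on from 1 and 585 at 10 times. *Kcnip4*, 1.05 between classes, turned to -0.40 with genes on from 5 per 10,000. Which step of the settings moved these values was not tested. Leaving out replicate 1 or 2 allows no test. The direction was then kept in 5598 to 5601 of the 5602 higher and 6386 of the 6386 lower genes, and between classes in 204 of 204 and 248 of 248. These genes were chosen by calls made over both libraries, so their kept direction cannot show stability. The size of fold changes often moved. Of the named fold changes computed in 1 library alone, 96 of 140 (neurons) and 23 of 52 (classes) moved by more than their standard error (or, where not called, changed sign), for example *Nrsn1* (9.46 in replicate 1 and 7.96 in replicate 2), *D130079A08Rik* (9.22 and 7.34), *Tafa4* (9.13 and 7.94) and *Sstr2* between classes (7.098 and 4.52, the first over 1 UMI). Named genes with no UMI in a group of 1 library, such as *Emcn*, *Cyyr1* and *Adgrl4*, have a fitted value there that is no bound.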
